A study of Mus musculus with 12 samples.

Results

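The genes described here encode G protein alpha subunits (Gnai2, Gnao1 and Gna12), adenylyl cyclases (Adcy2 and Adcy5), a cyclic AMP phosphodiesterase (Pde8b) and a phospholipase C beta (Plcb3). They were taken by name from the table of peaks that the authors had listed as differentially methylated in the aged mouse hippocampus, and each of the 7 genes had 1 listed peak, giving 7 of 529 unique peaks. RNA came from the hippocampus of male C57BL/6 mice aged 3 months (young) or 20 months (aged), with no treatment named. In MeRIP-seq, fragments of poly(A) RNA that carry N6-methyladenosine (m6A) are enriched with an m6A-specific antibody and sequenced. There were 3 such immunoprecipitate libraries per age, described as biological replicates, with RNA taken from individual hippocampal tissue. The replicates had been picked on a preceding qPCR assay. The input libraries were not analysed here, so more methylation, more transcript and a different immunoprecipitation yield cannot be told apart in a read count.

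Receptors coupled to G proteins activate alpha subunits, which then act on enzymes in the membrane. Gi and Go family subunits lower the activity of adenylyl cyclases, the enzymes that make cyclic AMP, and act on ion channels through the beta-gamma dimers they release. Phosphodiesterases break cyclic AMP down, and phospholipase C beta makes inositol trisphosphate and diacylglycerol when Gq family or beta-gamma subunits activate it. In hippocampal neurons cyclic AMP signalling is best known for its part in synaptic plasticity and memory.

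The peaks are shown first by sequence, since the m6A antibody enriches adenosines in a short consensus. The motifs searched on the transcript strand were GGAC, the core of the consensus, and DRACH, its general form (A, G or T, then A or G, then AC, then A, C or T), which can overlap GGAC. Of the 7 peaks, 5 held GGAC and 7 held DRACH, against 68.4% and 85.1% of all listed peaks. The peaks are not of equal length, and a match is only a match of letters. The window around the motif nearest to the centre of each peak is given in the direction of the transcript, read from GRCm38 (mm10), with the motif in capitals.
Gnai2 (chr9:107635211-107635239, minus strand): ggccgggccggcGGACggcaggatgggct
Gnao1 (chr8:93959027-93959055, plus strand): gagggtgctggtGGACtctgggctgagcc
Gna12 (chr5:140830264-140830292, minus strand): ccggggtggtgcGGACccttagccgctgc
Adcy5 (chr16:35155200-35155228, plus strand): actcaaccctcgGGACctgccggaacggg
Adcy2 (chr13:68999341-68999369, minus strand): gcaggcggtaggTGACCacagagcggcgc
Pde8b (chr13:95222928-95222956, minus strand): cggtggccacccAGACTggggggcgcgca
Plcb3 (chr19:6954193-6954221, minus strand): gagacagcagagGGACtgggggacggccc
The Adcy2 and Pde8b peaks held no GGAC, and their DRACH match is shown instead. Those peaks and the Gna12 peak held 1 DRACH match each, whereas the Gnao1 peak held 7, the Plcb3 peak 5, the Gnai2 peak 4 and the Adcy5 peak 3.

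Most of the peaks lay at the 5′ end of their transcript. The table annotated 5 of 7 to the 5′UTR (71.4%), against 54.2% of the 417 listed peaks with a higher mean in aged libraries, and 4 of these 5 also to the start codon. The letters around those start codons are shown because the peaks contain them, with the start codon in capitals.
Gnai2 (chr9:107635203-107635229, minus strand): gcggacggcaggATGggctgcaccgtg
Gna12 (chr5:140830282-140830308, minus strand): ctgagggcggccATGtccggggtggtg
Adcy2 (chr13:68999281-68999307, minus strand): cgagccgccccgATGtggcaggaggcg
Pde8b (chr13:95222799-95222825, minus strand): cccggctgagggATGggctgcgccccc
The Gnai2 and Pde8b windows have the same 9 bases from the start codon on, and of the 3 GGAC matches in the Gnai2 peak, the one nearest to the centre lies just before its start codon. The Adcy2 peak (chromosome 13, 68999270 to 68999470, in the first exon of Adcy2-201) covered 175 bases of 5′UTR and 25 coding bases. An antisense gene, Gm35161, spans this site without an exon in the peak, and whether reads were counted by strand is not given in the sources used here. The Pde8b peak (chromosome 13, 95222766 to 95222979) lay in the first exon of Pde8b-208, with 166 bases of 5′UTR and 47 coding bases. Pde8b has further transcripts, such as Pde8b-210 and Pde8b-207, in which the peak falls in an intron. The Gnai2 peak (chromosome 9, 107635143 to 107635344) covered 127 bases of 5′UTR and 74 coding bases of Gnai2-201, and the Gna12 peak (chromosome 5, 140830129 to 140830352) 56 and 167 bases of Gna12-201. The Adcy5 peak (chromosome 16, 35155064 to 35155288) lay wholly in a 5′UTR of 1222 bases, with its centre at base -923 from the start codon.

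The Gnao1 and Plcb3 peaks lay far downstream. Gnao1, whose product is an abundant G alpha subunit of neurons, had its peak (chromosome 8, 93958906 to 93959129) in the 3′UTR, 2769 bases past the end of the coding sequence of Gnao1-207. This 3′UTR belongs to Gnao1-207 alone among the annotated transcripts that span the site, and in Gnao1-201 and Gnao1-203 the same bases are intronic. The Plcb3 peak (chromosome 19, 6954130 to 6954330) had 169 of its bases in exon 31 of 31, all coding, and its centre lay at base -131 from the end of the coding sequence. No base of the 7 peaks is marked as repeat.

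**Figure D1:**
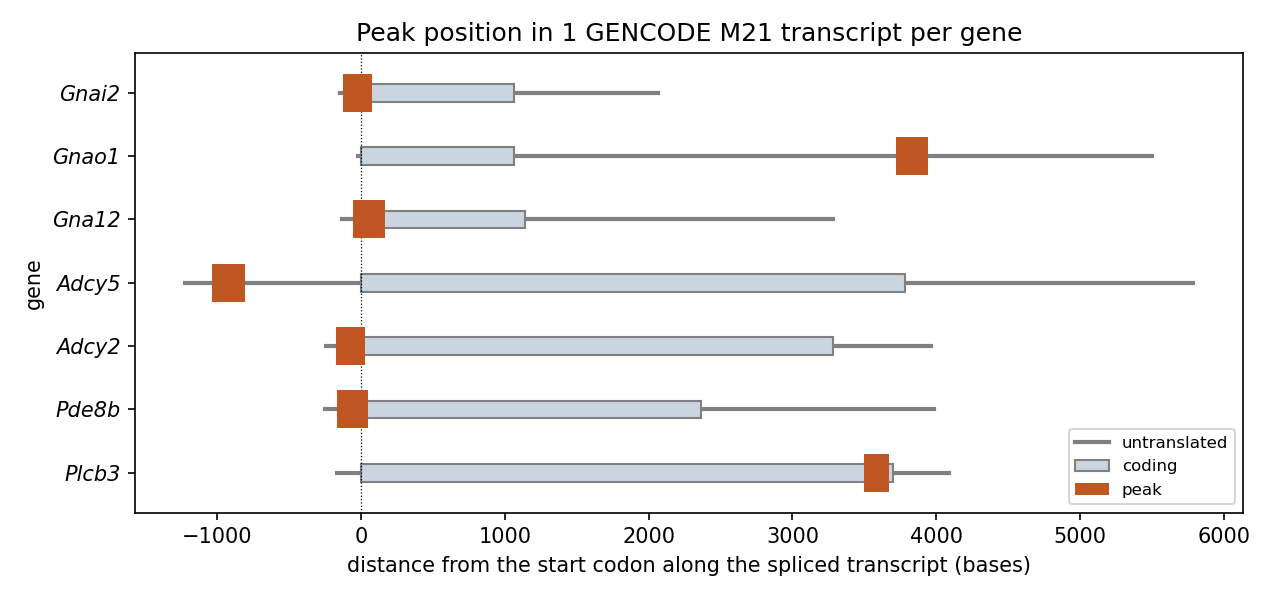
Position of the 7 peaks along 1 spliced GENCODE M21 transcript per gene, in bases from the start codon (dotted line), with coding sequence as boxes and untranslated sequence as lines. The peaks of Gnai2, Gna12, Adcy2 and Pde8b cover the start codon, the centre of the Adcy5 peak lies at -923, and the Gnao1 and Plcb3 peaks lie far downstream.

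Read counts are given below as CPM, that is, scaled to the library size, which was recovered from the deposited log2 average abundance of the peaks and not from any fold change. For young libraries 1 to 3 the sizes were 14914087, 12814332 and 16084207 reads, and for aged libraries 1 to 3 they were 12534219, 6157990 and 8736256. The listed peaks took up 3.60%, 5.47% and 2.89% of them in young and 5.56%, 5.24% and 5.73% in aged libraries, so young library 2 was close to the aged libraries in this respect and young library 3 lowest. Every listed peak had been chosen by the authors for a difference between these same libraries, so the p-values below are not independent evidence. Ages were compared over all 529 peaks by the quasi-likelihood method of edgeR, two-sided, with Benjamini-Hochberg adjustment. It called 6 peaks higher and 0 lower at an adjusted p of 0.05. At an unadjusted p under 0.05 it gave 91 higher and 48 lower (17.2% and 9.07%), while edgeR's likelihood ratio test and DESeq2's Wald test each called 11 higher and 1 lower (2.08% and 0.189%). The authors' own test was edgeR's likelihood ratio test, with removal of unwanted variation as an additional option that was not repeated here. The calls given here are thus not a repeat of theirs. Neuron, astrocyte and endothelial markers had no listed peak, so the tissue could not be checked against them here.

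All 7 peaks had a higher mean in aged than in young libraries, with log2 fold changes from 0.46 (Gna12) to 0.97 (Adcy2). None passed the test, against 1.13% of all listed peaks called higher. Of all listed peaks, 78.8% had a log2 fold change above 0. The median was 0.59 over all listed peaks and 0.64 over those above 0, against 0.58 for the 7. In 5 of the 7 every aged library lay above every young one, as in 32.1% of all listed peaks (170 of the 417 above 0). This count of the 7 was 1 or 0 with the other scalings tried. At an unadjusted edgeR p under 0.05 there were 3 of the 7 (Adcy2, Pde8b and Plcb3). In that direction there were 17.2% of all listed peaks, or 91 of the 417 above 0.

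**Figure D2:**
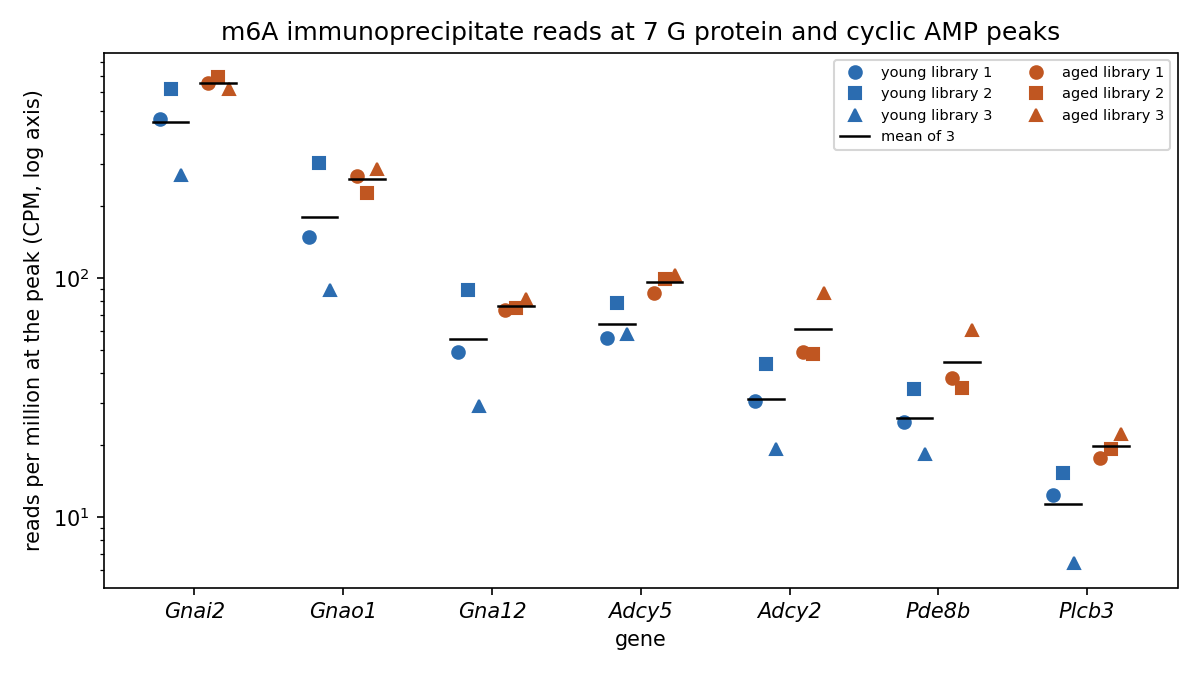
CPM at the 7 peaks in each library, on a log axis, for young (blue) and aged (orange) libraries 1 to 3, with the mean of each age as a line. The ages overlap in Gna12 and Gnao1, where young library 2 is the highest of all 6, and young library 3 is the lowest in every gene except Adcy5.

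Among the alpha subunits, Gnai2, which encodes a Gi subunit that lowers adenylyl cyclase activity, had the most reads. In young libraries 1 to 3 its peak held 464, 619.9 and 271 CPM, against 658, 693 and 621 CPM in aged libraries 1 to 3. All aged libraries lay above all young ones, but young library 2 was almost level with aged library 3. The means were 451 ± 175 and 657 ± 36.3 CPM (SD, n = 3). On the log2 scale aged exceeded young by 0.54 with an SE of 0.41, and the adjusted p from edgeR was 0.232. The young SD was thus close in size to the difference between the means.

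At the Gnao1 peak, young libraries 1 to 3 held 149, 302 and 89.0 CPM, and aged libraries 1 to 3 held 269, 228 and 285 CPM. Young library 2 was the highest of all 6, and the other young libraries were the lowest. Means of 180.2 ± 109.8 CPM in young and 261 ± 29.4 CPM in aged (SD, n = 3) gave a log2 difference of 0.53. Its SE was 0.44, and the adjusted p from edgeR was 0.261. Gna12, which encodes an alpha subunit outside the Gi and Go family, had a similar pattern. Young libraries 1 to 3 held 48.9, 89.1 and 29.2 CPM of Gna12, and aged libraries 1 to 3 held 73.4, 74.9 and 82.2 CPM. Young library 2 again exceeded each aged library, and the other young libraries were again the lowest. The means were 55.7 ± 30.5 and 76.8 ± 4.71 CPM (SD, n = 3). Their log2 difference of 0.46 had an SE of 0.39 and, by edgeR, an adjusted p of 0.273. Across the 6 libraries the log2 CPM of Gnao1 and Gna12 correlated at r = 0.991 (Pearson), given as a description, since all peaks share the libraries and their sizes. At these genes young library 2 had 2.53 times (Gnao1) and 2.28 times (Gna12) the mean of the other young libraries, and a median of 1.72 times over all listed peaks.

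The adenylyl cyclases differed in how their libraries were spread. Adcy5 encodes an isoform that Gi subunits and calcium inhibit. Its peak held 56.2, 78.9 and 58.4 CPM in the young and 86.3, 98.9 and 103 CPM in the aged libraries, each from 1 to 3. All aged libraries were above all young ones, and the young spread was the smallest of the 7 genes, with a coefficient of variation of 19.4% against 31.0% to 61.0% in the others. Mean CPM was 64.5 ± 12.5 in young and 96.1 ± 8.74 in aged (SD, n = 3), 0.58 higher in aged on the log2 scale. The SE of this value was 0.33, and edgeR put the adjusted p at 0.168.

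Adcy2, which encodes an isoform that beta-gamma subunits stimulate together with Gs, had the largest log2 fold change of the 7. From library 1 to 3, its CPM was 30.6, 43.8 and 19.3 in young and 49.3, 48.2 and 86.3 in aged. The ages did not overlap, and aged library 3 stood above the other aged libraries. Mean CPM was 31.2 ± 12.3 in young and 61.3 ± 21.7 in aged (SD, n = 3). The log2 difference was 0.97 with an SE of 0.38, for which edgeR gave p 0.0201 before and 0.167 after adjustment. Without aged library 3 the log2 fold change was 0.64, with an adjusted p of 0.361 from edgeR.

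Pde8b encodes a phosphodiesterase with high affinity for cyclic AMP. Young libraries 1 to 3 held 25.1, 34.3 and 18.3 CPM at its peak, whereas aged libraries 1 to 3 held 38.4, 34.8 and 60.9 CPM. Young library 2 and aged library 2 were nearly equal, and aged library 3 was again well above the rest. With means of 25.9 ± 8.02 and 44.7 ± 14.2 CPM (SD, n = 3), the log2 difference was 0.79 (SE 0.34). By edgeR p was 0.0356 before and 0.167 after adjustment. The log2 fold change was 0.50 without aged library 3. In aged library 3 the Adcy2 peak had 1.77 times and the Pde8b peak 1.67 times the mean of the other aged libraries, ranks 8 and 14 among the 529 listed peaks, whose median was 1.07 times. Both genes lie on chromosome 13, far apart, and their log2 CPM correlated at r = 0.996 over the 6 libraries.

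Plcb3, a phospholipase C activated by Gq family and beta-gamma subunits, had the fewest reads, with 103 to 222 per library. These came to 12.3, 15.2 and 6.40 CPM in young and 17.7, 19.3 and 22.3 CPM in aged libraries 1 to 3. The ages did not overlap, and young library 3 was far below the rest. Mean CPM went from 11.3 ± 4.49 in young to 19.8 ± 2.34 in aged (SD, n = 3). This log2 difference of 0.81 had an SE of 0.36, and edgeR gave p 0.0422 before and 0.167 after adjustment. Without young library 3 it was 0.52.

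The spread among young libraries ran through the 7 genes. Young library 2 lay above young library 3 in all 7 (77.5% of all listed peaks), by a log2 difference of 0.43 (Adcy5) to 1.76 (Gnao1). The order of young library 2 over 1 over 3 held in 6 of 7 genes and in 66.9% of all listed peaks. Without young library 2 all 7 peaks passed the test, with log2 fold changes of 0.75 (Adcy5) to 1.30 (Adcy2) and edgeR adjusted p of 0.00042 to 0.0096. That setting called 77.5% of all listed peaks higher and 19.5% lower, so nearly every listed peak passed there. Without young library 3 none of the 7 passed (2.65% of all listed peaks called higher), and the log2 fold changes were 0.16 in Gna12, 0.21 in Gnao1 and 0.28 in Gnai2. None of the 7 passed without young library 1 (0.945% higher, 0.189% lower), aged library 1 or 2 (0.945% higher each) or aged library 3 (0.756% higher). With 1 residual factor as covariate, an alternative added after seeing the data, all 7 passed, as did 78.6% of all listed peaks higher and 20.8% lower. Whether this factor resembles the unwanted variation that the authors' option removes was not tested.

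Scaling moved the 7 peaks as a block. The ages were separate, with aged higher, in 5 of the 7 with the recovered sizes, in 1 with column totals and in 0 with TMM or DESeq2 size factors. Over all 529 listed peaks the counts were 170, 54, 22 and 24 in the same order. With the column totals of the listed peaks their log2 fold changes were 0.061 (Adcy5) to 0.52 (Adcy2), and with TMM and DESeq2 size factors those of Adcy5, Gna12 and Gnai2 were just below 0. None of the 7 was called with any of them, where 1.13% of all listed peaks were higher and 0.567% (column totals), 16.4% (TMM) and 8.51% (DESeq2 size factors) lower. Adcy2, Pde8b, Plcb3 and Gnao1 stayed above 0 with each scaling, at 0.40, 0.18, 0.24 and 0.037 with DESeq2 size factors. These 3 scalings shifted the log2 fold changes by about -0.52 (column totals), -0.63 (TMM) and -0.64 (DESeq2 size factors), and TMM and DESeq2 size factors centre a list of mostly higher peaks by construction.

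**Figure D3:**
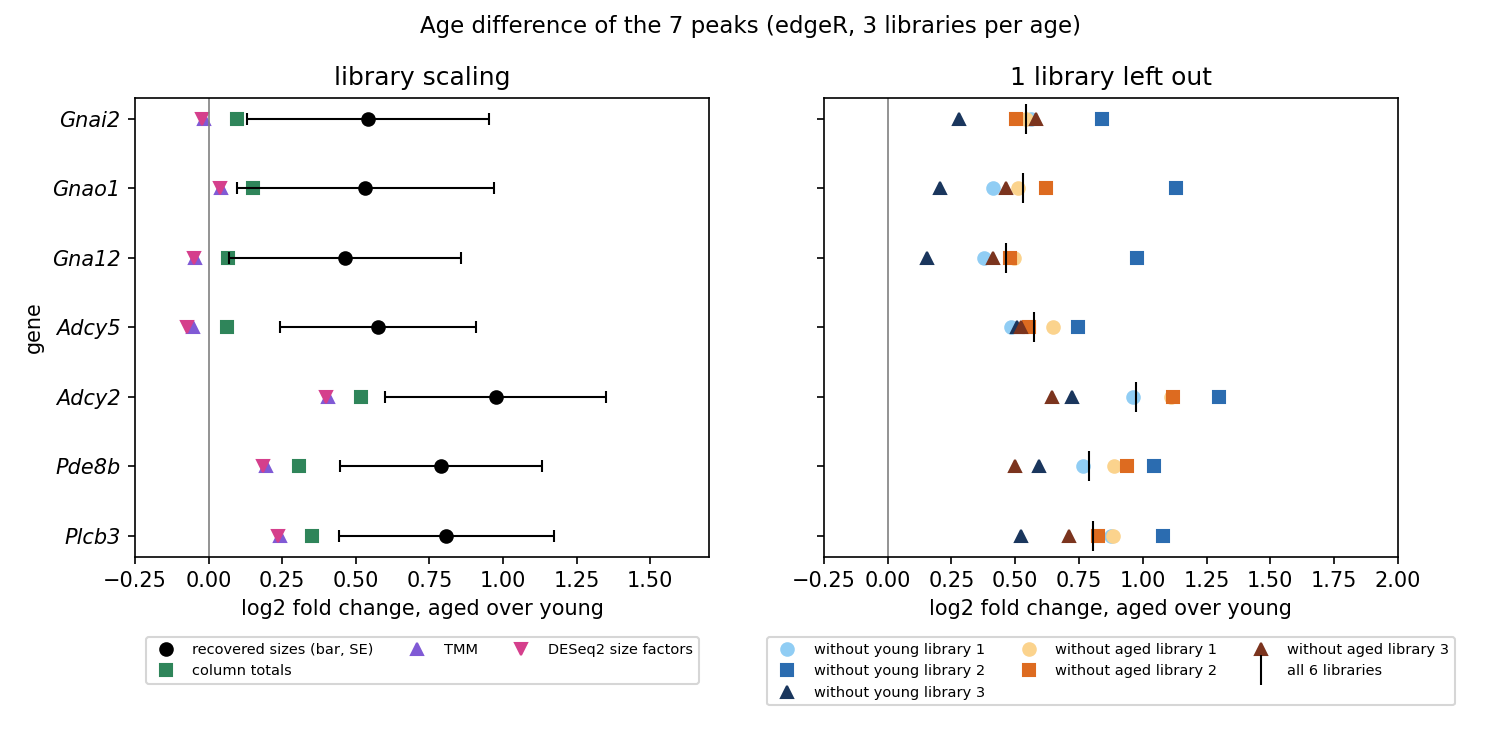
Log2 fold change (aged over young) of the 7 peaks under 4 library scalings (left; bars are the SE of the fit with recovered sizes) and with each library left out in turn (right). Each scaling moves all genes together, and leaving out young library 2 or 3 moves Gnao1 and Gna12 most.

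Ratios within a library need no library size, so each peak was also set against the Gnai2 peak of the same library. The Plcb3 reads of young libraries 1 to 3 were 2.66%, 2.45% and 2.37% of their Gnai2 reads, and those of aged libraries 1 to 3 were 2.69%, 2.79% and 3.60%. Plcb3 was the gene of the 6 compared whose ratios did not overlap between ages, with a log2 difference of 0.27, aged minus young (exact permutation test, two-sided, p 0.1, adjusted over 6 ratios 0.6). With 3 libraries per age 0.1 is the smallest p this test can give. How many of the other listed peaks would be separate in such a ratio was not counted. The Adcy2 ratio was 6.59%, 7.06% and 7.12% in young and 7.50%, 6.96% and 13.9% in aged libraries, so only aged library 3 left the young range clearly (log2 difference 0.38, exact p 0.3). Pde8b had 5.41%, 5.53% and 6.76% in young and 5.83%, 5.01% and 9.81% in aged libraries, again with aged library 3 apart. Its log2 difference of 0.17 was smaller than the SD of either age (exact p 0.8). The log2 differences of Gnao1 (0.086), Gna12 (-0.012) and Adcy5 (-0.033) were smaller than the SD of either age, with exact p of 0.9, 0.9 and 1.

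**Figure D4:**
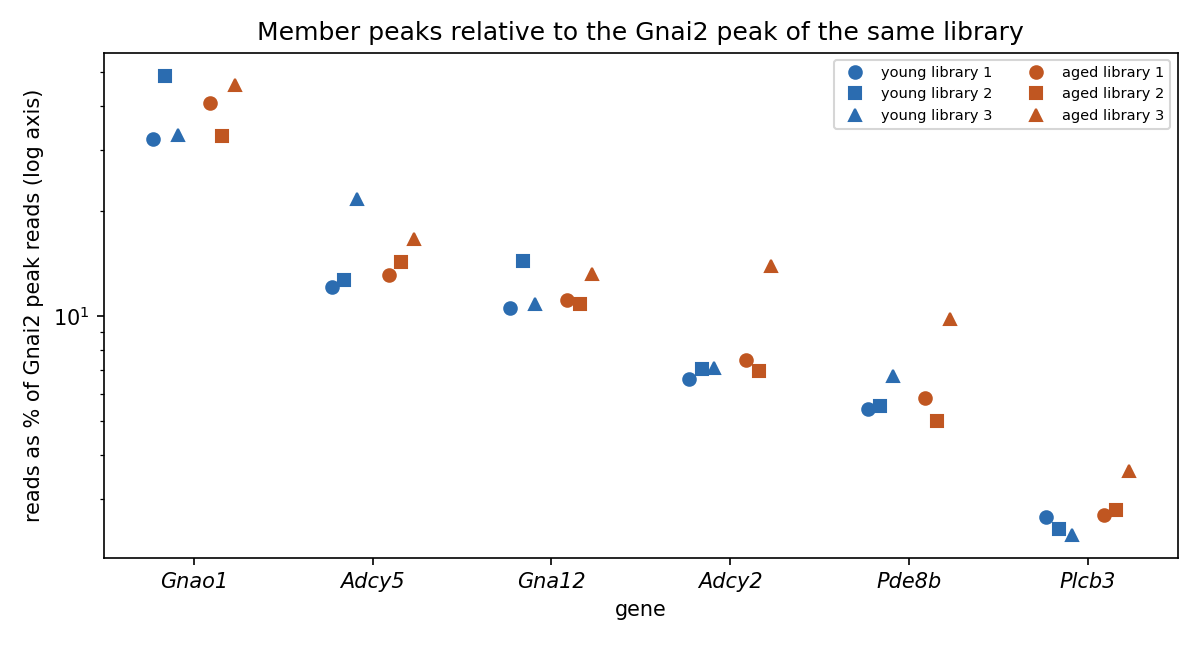
Reads at 6 peaks as a percentage of the reads at the Gnai2 peak of the same library, on a log axis, for young (blue) and aged (orange) libraries 1 to 3. Aged library 3 stands apart in Adcy2 (13.9%) and Pde8b (9.81%), and the 2 ages are separate in Plcb3 alone.

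The level per length of peak differed widely between the genes. In CPM per 100 bases of peak, averaged over the 6 libraries, Gnai2 had 276 ± 79.4, Gnao1 98.8 ± 37.8, Adcy5 35.9 ± 8.85, Gna12 29.7 ± 10.2, Adcy2 23.1 ± 11.4, Pde8b 16.6 ± 6.84 and Plcb3 7.78 ± 2.82 (SD, n = 6). The ranges of neighbours in this order overlapped throughout. Within a library the order was nonetheless kept in all 6 libraries for 4 of the 6 neighbouring pairs, and in 5 of 6 for Adcy5 over Gna12 and for Gna12 over Adcy2.

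The peaks were rich in GC, from 66.0% in Plcb3 and 66.8% in Gnao1 to 82.0% in Adcy2 and 83.0% in Gna12. The median of the 7 was 73.1%, against 69.8% over all listed peaks and 73.5% over those with a higher mean in aged libraries. The members with the lowest GC, Plcb3 and Gnao1, are those that lie downstream in the transcript.

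**Figure D5:**
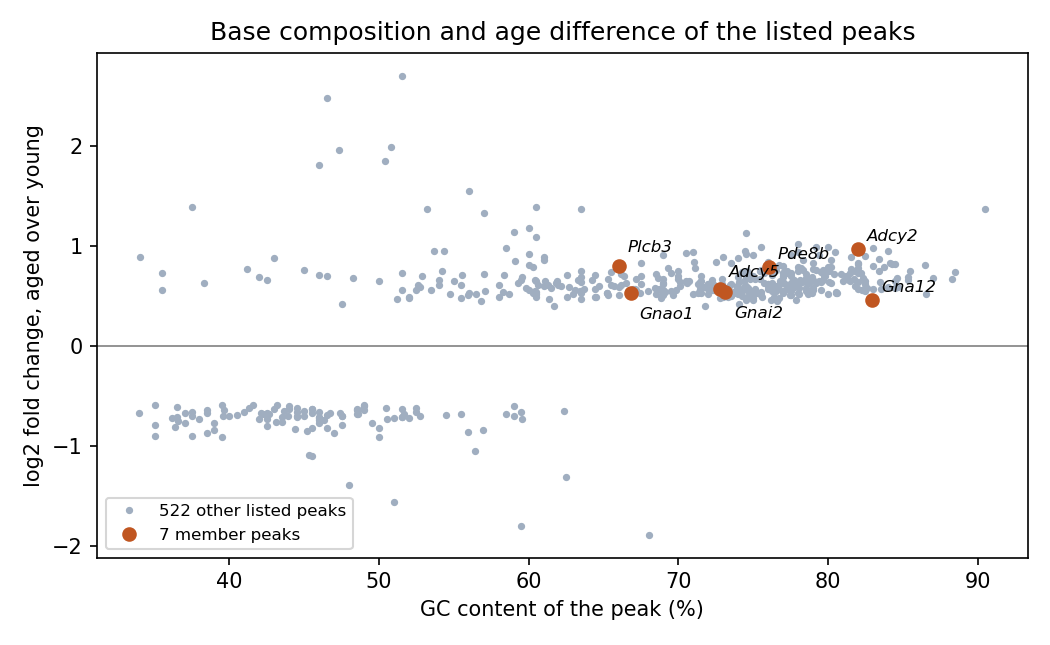
GC content of each listed peak against its log2 fold change (aged over young), with the 7 peaks in orange and the remaining 522 in grey. The 7 lie between 66.0% and 83.0% GC, within the cloud of other peaks with a positive value.

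The wider pathway was followed through 8 lists of 203 signalling genes, of which 16 had a listed peak. Beside the 7, these were 9 genes with 13 peaks, 7 above and 6 below 0 (78.8% of all listed peaks above 0). The peaks below 0 came from Gpr17, with several peaks, Akap8 and Rgs3 only. In either direction 0 were called, and the median log2 fold change was 0.50 (all listed peaks 0.59). Of the 73 receptors in the lists, those with a listed peak were Gpr17, Gabbr1, Cnr1, Sstr3 and Adgrb2. The lists do not hold every receptor coupled to G proteins, so the counts cover their genes only. Outside them, examples were Gpr61 and Adgra3, with listed peaks lower in aged libraries, and Gpr62, with a higher one. None of the 15 beta and gamma subunits in the list had a listed peak, nor did the remaining 12 alpha subunits and 8 adenylyl cyclases.

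The receptor Gpr17, found on oligodendrocyte precursors, had 4 peaks in its 3′UTR, from -0.65 to -1.05 (edgeR adjusted p 0.167 each). All 4 were lower in every aged library than in any young one, as were 14.9% of all listed peaks. Arhgef12, whose product Gα12 and Gα13 subunits activate, held 36.5 ± 11.4 CPM in young and 61.0 ± 7.12 CPM in aged at its 5′UTR peak (SD, n = 3), a log2 difference of 0.74 with an adjusted p from edgeR of 0.167. The cannabinoid receptor Cnr1, which couples to Gi and Go, had 30.7 ± 4.16 and 48.3 ± 9.47 CPM (0.65, edgeR adjusted p 0.167). Akap8, an anchor of protein kinase A, had 15.4 ± 5.22 and 8.91 ± 2.75 CPM, a log2 fold change of -0.78 (edgeR adjusted p 0.167). Rgs3, which speeds the return of alpha subunits to their inactive state, had -0.65 and Sstr3, a somatostatin receptor coupled to Gi, 0.66, both with overlapping ages. None of these passed the test.

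The listed peaks most like the mean of the 7 genes over the 6 libraries (Pearson's r of log2 CPM, a description) were in B4galt2 (r = 0.999), Rasl10b (0.999), 9930021J03Rik (0.997), Cfap97 (0.996) and Ppp1r14b (0.995). Such likeness was common, as 56.3% of the 522 other listed peaks had r over 0.9. Among the 7 themselves r ran from 0.80 (Adcy5 and Gnai2) to 0.996 (Adcy2 and Pde8b). Among the cell type marker lists, 4 genes had a listed peak, and none passed the test. The listed microglia markers, C1qc and Tmem119 (2 of 9), summed to 109 to 219.7 CPM in young and to 231 to 287 CPM in aged libraries. The listed oligodendrocyte marker, Mobp (1 of 8), ranged over 486 to 1201 CPM in young and 1049 to 1633 CPM in aged libraries. The listed choroid plexus marker, Cldn2 (1 of 8), had a lower mean in aged, 27.1 ± 19.1 CPM in young against 9.18 ± 8.14 CPM in aged (SD, n = 3), with overlapping ages and a log2 difference of -1.56. The Gpr17 peaks described above were lower in aged as well. Their part in the differences was not tested.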

How the data were processed

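Hippocampal m6A immunoprecipitates of young and aged mice were analysed from the deposited table of listed peaks (862 rows, 529 unique peaks). Tools listed by the submitters' processing notes, without roles, were bedtools 2.25.0, Subread 1.6.4, MACS2 2.2.1, SAMtools 1.3, STAR 2.5.3a, Bowtie2 2.2.7 and Trimmomatic 0.36, with the mm10 build. The deposited counts are whole reads per peak that the authors did not normalize, and the deposited log2 average abundance is the authors' edgeR value over the 6 libraries. The remaining columns hold the authors' fold changes and test results and were not used.

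Library sizes were those for which edgeR's average abundance of the counts equals the deposited log2 abundance (median absolute difference 1.02e-07 log2). Whether these sizes are total mapped reads or include normalization factors is not stated. Peaks were tested with edgeR 4.0.16 (R 4.3.3) by the quasi-likelihood F test with no covariate and no filter, with a threshold of 0.05 on the adjusted p. The SE is the log2 fold change divided by the root of F. CPM are counts per recovered library size. Alternatives were other scalings, edgeR's likelihood ratio test, DESeq2 1.42.0, a minimum of 100 reads, a replicate block and each library left out. The procedure was tested on simulated data for this comparison over 529 peaks. It called 58.0% of peaks with a log2 fold change of 1 and 0.912% of unchanged ones. The simulated counts were drawn independently at the common dispersion, without the difference shared by peaks between young libraries 2 and 3. Nor were the simulated peaks preselected for a difference, so these rates do not carry over to the listed peaks. Transcripts are from GENCODE M21. Peak starts are given as deposited and were read as counting from 0. Named genes were the 7 genes, the 5 peaks most like their mean, and members of fixed lists in order of p. Gpr61, Adgra3 and Gpr62 were named as examples outside these rules. The members and lists were chosen with earlier results of these data known. Sequences were read with Python 3.11.15 and pandas 2.3.3.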

Additional observations from a re-analysis of the deposited data

How the results depend on the processing

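Counts over all listed peaks changed with the setting. The count of higher peaks was 6 with the recovered sizes, 11 with edgeR's likelihood ratio test and 11 with DESeq2's Wald test, and lower peaks were 0, 1 and 1. Lower peaks numbered 3 with column totals, 87 with TMM and 45 with DESeq2 size factors. Leaving out 1 library gave 4 to 410 higher and 0 to 103 lower peaks, and 0 to 7 of the 7 peaks described here; the highest counts came without young library 2. A residual factor as covariate, chosen after seeing the data, gave 416 higher and 110 lower peaks and called 7 of the 7, with log2 fold changes of 0.59 to 1.04. The factor was taken from these peaks and sets young library 2 against young library 3, so fewer unexplained differences are left by construction. The sign turned with TMM in Adcy5 (-0.054), Gna12 (-0.047) and Gnai2 (-0.015), and with DESeq2 size factors in Adcy5 (-0.073), Gna12 (-0.051) and Gnai2 (-0.023). Over all alternatives, 78 log2 fold changes of the 7 peaks kept direction and side of the threshold, 14 came to pass it and 6 turned.

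Same-numbered young and aged libraries did not deviate together (r of -0.19, -0.039 and -0.028). Whether they shared a preparation step is not given in the sources used here. These correlations cannot settle it, as the difference between young libraries 2 and 3 dominates the deviations. With the replicate block 6 peaks were called higher and 1 lower, none of the 7, whose log2 fold changes were 0.59 to 0.99 (edgeR adjusted p 0.198 to 0.265). The spread between young libraries limited the precision, as the median coefficient of variation of the 7 peaks was 39.3% in young and 11.3% in aged libraries. Over all listed peaks these medians were close to that, at 38.6% and 12.9%.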

Other observations

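The dispersion at which edgeR's average abundance equals the deposited values was 0.0158, whereas the common dispersion estimated here from the listed peaks was 0.107 with age alone in the model and 0.0213 with the residual factor added. The first residual factor held 80.9% of the variance of log2 CPM around the age means, with weights of 0.73 for young library 2 and -0.67 for young library 3 and weights near 0 for the other libraries. The cause of the difference between these young libraries was not tested.

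The Ppp1r14b peak, among the 5 most like the mean of the 7 genes, lies on the plus strand within the annotated span of Plcb3 (chromosome 19, 6952325 to 6976470, minus strand). Its mean CPM was 54.4 ± 19.1 in young and 81.5 ± 9.10 in aged (SD, n = 3), a log2 difference of 0.58 for which edgeR gave an adjusted p of 0.176. The gene encodes an inhibitor of a protein phosphatase.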
